A study of Mus musculus with 8 samples.

Results

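Intronic RNA just upstream of 3' splice sites, where an intron ends and the next exon begins, was examined among the RBM45 iCLIP peaks that both wild-type replicates share. A shared peak was counted when its midpoint lay in an intron of a protein-coding gene on its own strand, in no exon of that gene, and within 100 nt upstream of an exon start in any transcript of the GENCODE M21 basic set (mm10). Where a 5' splice site was also that close, the nearer site decided. The rule chose 336 of 16399 distinct shared peaks, or 2.35% (95% Wilson interval 2.12 to 2.62) of the 14273 that lay in introns of protein-coding genes. They stood at 336 different 3' splice sites of 322 genes. A mirror class of 327 shared peaks within 100 nt downstream of a 5' splice site, and 13610 intronic shared peaks farther from any splice site (called deep intronic below), served as comparisons.

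RBM45 binds RNA through several RNA recognition motif domains. In iCLIP, UV light links a protein to the RNA it touches, and the RNA pulled down with the protein is sequenced. The cells were mHippoE-2, a transformed mouse hippocampal neuron line, transduced with a lentivirus for FLAG-HA-tagged mouse RBM45, so that the peaks concern a tagged protein added to the cells. The series holds 8 libraries in 4 groups of 2, namely CLIP with an antibody against the HA tag and size-matched input without antibody, each from wild-type cells and from Mettl3 KO cells, which lack the enzyme that methylates adenosines of mRNA to m6A. UV light of 150 mJ/cm2, given 2 times, is stated for the Mettl3 KO libraries alone. Every value below comes from the 2 wild-type CLIP libraries, and the Mettl3 KO libraries were not analysed here. The depth of the libraries is unknown, the labels do not state whether the replicates were separate cultures, and how strand was given to a peak is not stated in the sources used here. Of defining neuron markers 6 of 7 held a peak in both replicates, as did 2 of 4 progenitor, 3 of 4 astrocyte, 3 of 4 oligodendrocyte, 3 of 4 microglia and 2 of 3 endothelium markers. Peaks of this kind therefore did not tell the labelled cell type apart from others, and 0 of these markers held a peak close to a 3' splice site. Over all protein-coding genes, 13043 of 21924 held intronic peaks in both replicates, and 322 of these (2.47%) a shared peak close to a 3' splice site. The marker counts are to be read against these shares.

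A 3' splice site is read by the splicing machinery through a branch point, a stretch rich in pyrimidines and a final AG. U2AF binds the pyrimidine stretch and the AG, and the U2 snRNP pairs with the branch point, all within the last part of the intron. Proteins that bind there can compete with or assist this recognition, and exons whose 3' splice site is used in some transcripts and passed over in others are called skipped exons.

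The sequences of the 6 highest-ranked peaks that could be read show what RNA lay in this zone. Peaks were ranked by the lower of the replicates' −log10 p. Each run below goes 5' to 3' from the upstream end of the replicate 2 peak to 10 bases into the exon (GRCm38, from GENCODE transcripts that retain the intron). Capitals mark each GAC, a triplet that RBM45 is known to bind and that forms part of many m6A consensus sites, and each run of 5 or more T (U in the RNA).
Brox (chr1:183292572-183292656, minus strand): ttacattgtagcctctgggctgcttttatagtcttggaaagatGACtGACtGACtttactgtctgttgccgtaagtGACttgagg
Tnfrsf12a before exon 2 (chr17:23676614-23676726, minus strand): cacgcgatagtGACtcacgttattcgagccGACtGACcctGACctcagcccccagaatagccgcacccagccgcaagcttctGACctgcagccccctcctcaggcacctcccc
H2afz (chr3:137865477-137865529, plus strand): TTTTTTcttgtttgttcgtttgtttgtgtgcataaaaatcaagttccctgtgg
Iffo1 (chr6:125153359-125153419, plus strand): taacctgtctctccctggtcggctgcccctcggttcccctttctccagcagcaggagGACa
Troap (chr15:99082850-99082918, plus strand): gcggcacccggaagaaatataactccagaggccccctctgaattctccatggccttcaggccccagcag
Tnfrsf12a before exon 3 (chr17:23676264-23676344, minus strand): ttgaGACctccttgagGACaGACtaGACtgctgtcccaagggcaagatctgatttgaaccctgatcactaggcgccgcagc

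Brox and Tnfrsf12a, the top-ranked of these, held 4 and 5 GAC within the peak. The last GAC of Brox lies in the exon part of its peak, and its others in the intron. Brox encodes a protein with a BRO1 domain, and its GAC triplets included 3 in a row spaced by single T bases. The peak of Tnfrsf12a before exon 3 held 4. By contrast the peak before exon 3 of H2afz, which encodes the histone variant H2A.Z, opened on a run of T and held 0. Iffo1, an intermediate filament family member, and Troap held 0 within the peak; the single GAC printed for Iffo1 lies in the exon beyond the peak.

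A further 3 peaks are shown for contrast, chosen after their values were seen. Nisch (the imidazoline receptor-like protein nischarin) and Commd4 were GAC-rich, and Hnrnpa2b1, a splicing regulator linked to ALS, carried a run of T close to its AG. Capitals mark the same letters.
Nisch (chr14:31203400-31203500, minus strand): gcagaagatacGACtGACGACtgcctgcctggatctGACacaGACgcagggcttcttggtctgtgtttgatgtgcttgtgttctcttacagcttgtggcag
Commd4 (chr9:57157129-57157227, minus strand): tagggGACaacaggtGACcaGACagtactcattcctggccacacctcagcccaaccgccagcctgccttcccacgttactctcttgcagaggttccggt
Hnrnpa2b1 (chr6:51462046-51462109, minus strand): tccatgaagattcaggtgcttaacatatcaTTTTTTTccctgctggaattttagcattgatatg

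In the intervals themselves, GAC occurred 5 times in Nisch, 3 times in Commd4 and 0 times in Hnrnpa2b1. Sequence could be read for 64 of the 336 peaks, where some transcript in the comprehensive annotation spans the interval. Since such transcripts mostly retain the intron, these 64 are not a random sample, although 2 of them (3.13%) and 8 of the 272 unread peaks (2.94%) had a fold of 5 or more in both replicates.

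GAC was found in 20 of the 64 readable peaks (31.3%, 21.2 to 43.4). Readable peaks near 5' splice sites held it in 40% (28.6 to 52.6 of 60), and deep intronic peaks in 40.96% (37.3 to 44.7 of 669). The intervals for both splice site classes overlap. Counted per length, GAC stood at 16.98 per kb of the peaks close to 3' splice sites, 21.1 near 5' splice sites and 19.3 deep in introns. The consensus of m6A sites known as DRACH, searched on the RNA strand like every motif here, occurred in 45.3%, 53.3% and 53.5% of the readable peaks of these classes. Many DRACH matches contain GAC, so the 2 motifs overlap.

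Peaks with several GAC were few and stronger than the rest. Among readable peaks close to 3' splice sites, 7 held 3 or more GAC (10.9%, 5.4 to 20.9), at a median lower fold of 3.12 against 1.87 in the others. They were also wider, with a median of 67 bp against the 30 bp of all readable peaks of the class, and a wider interval has more room for a motif. The share with 3 or more was 10.0% near 5' splice sites and 8.37% deep in introns, where their median lower folds were 3.54 and 3.97. The count of 3 or more was chosen after the sequences were seen.

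Pyrimidines made up more of the readable peaks close to 3' splice sites than of the other classes. C and U made up 60.9% of the bases of the readable peaks, against 52.5% near 5' splice sites and 52.5% deep in introns. UCUU occurred in 34.4%, 31.7% and 21.2% of peaks, UUUUU in 15.6%, 10.0% and 9.42%, and CUCUCU in 6.25%, 1.67% and 1.35%. CUCUCU was thus seen in 4 of 64 peaks. The last 50 nt of the introns gave a closer comparison. In 66 readable introns with a peak, C and U made up 61.1% of these bases, and in 551 readable other introns of the same genes 60.8%. UUUUU occurred in 16.7% and 15.1% of these intron ends, UCUU in 47.0% and 51.7%, and CUCUCU in 9.09% and 9.26%. GAC occurred in 30.3% (20.6 to 42.2) of the ends of introns with a peak and 41.9% (37.9 to 46.1) of the ends of the other introns. Among all peaks of the class, 153 had midpoints 51 to 100 nt from the site, outside this window. Whether the other introns held an unshared peak is not given here. The comparison therefore describes intron ends, and cannot tell whether bound RNA holds less GAC than unbound RNA. All 66 introns with a peak ended in AG, as did 549 of the 551 others.

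Within the zone, the peaks crowded towards the splice site. Of the 336 peaks, 54 (16.1%, 12.5 to 20.4) had their midpoint in the last 10 nt of the intron and 41 (12.2%, 9.12 to 16.1) in the 10 nt before. At 5' splice sites the order was the opposite, with 11 (3.36%, 1.89 to 5.92) in the first 10 nt of the intron and 13 (3.98%, 2.34 to 6.68) in the next. The fall with distance at 3' sites was uneven. Midpoints 31 to 40 nt away numbered 41 (12.2%, 9.12 to 16.1) and those 81 to 90 nt away 38 (11.3%, 8.35 to 15.1). Both intervals overlap that of the last 10 nt. Within 20 nt of the site lay 95 peaks at 3' sites (28.3%, 23.7 to 33.3) and 24 at 5' sites (7.34%, 4.98 to 10.7), and the intervals do not overlap. Within 50 nt the shares were 54.5% (49.1 to 59.7) and 34.3% (29.3 to 39.6). This contrast was described without a test.

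**Figure D1:**
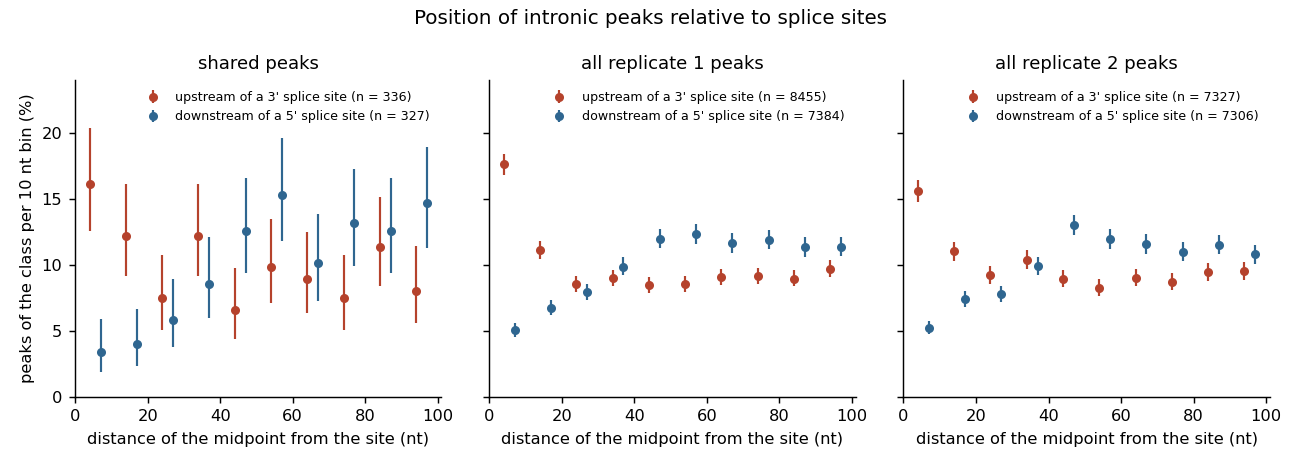
Share of intronic peaks in each 10 nt bin of distance between midpoint and splice site (percent of the class, bars 95% Wilson intervals), for shared peaks and for all peaks of replicate 1 and replicate 2. The bin nearest the site holds 16.1% of shared peaks upstream of 3' splice sites (red) and 3.36% downstream of 5' splice sites (blue), and both single lists show the same order.

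The same shape was present in each library's own list, which is far larger than the shared one. In replicate 1, 28.7% of 8455 peaks upstream of 3' sites and 11.8% of 7384 downstream of 5' sites lay within 20 nt, and in replicate 2 26.6% of 7327 and 12.6% of 7306. Peaks that met no peak of the other replicate gave 28.6% and 12.1% in replicate 1, and 26.5% and 12.9% in replicate 2. The crowding towards the 3' splice site was thus also present among peaks that 1 library alone holds. Beyond the last 20 nt, each 10 nt bin held 8.44% to 9.71% of the replicate 1 peaks at 3' sites, and 6.55% to 12.2% of the shared peaks.

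Many intervals crossed into the exon. In replicate 2 the interval of 92 of the 336 peaks (27.4%, 22.9 to 32.4) covered at least 1 exon base, by a median of 9.5 and at most 54 nt. In replicate 1 it was 112, and in both 78. Near 5' splice sites 17 of 327 (5.20%, 3.27 to 8.17) crossed. Crossing follows from distance and width: 85 of the 95 peaks with a midpoint within 20 nt crossed, 7 of the 88 from 21 to 50 nt, and 0 of the 153 beyond.

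Most of the peaks were weak by the authors' measure. The deposited fold, the pileup over background as the peak caller gave it, had a median of 1.95 in replicate 1 (range 1.82 to 34.1) and 1.92 in replicate 2 (1.81 to 19.9). Both folds were under 2 for 132 peaks (39.3%), a share close to the 37.0% near 5' splice sites and 38.7% deep in introns. A fold of 10 or more in both was reached by 4 peaks (1.19%), among them those in Cep89, Lsm6 and Brox. That share was 0.917% near 5' splice sites and 1.47% deep in introns. The fold was higher in replicate 1 for 231 of the 336. Across peaks, the Spearman correlation between the replicates' folds was 0.34, against 0.39 near 5' splice sites and 0.46 deep in introns, as a description over peaks that come from the same 2 libraries.

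**Figure D2:**
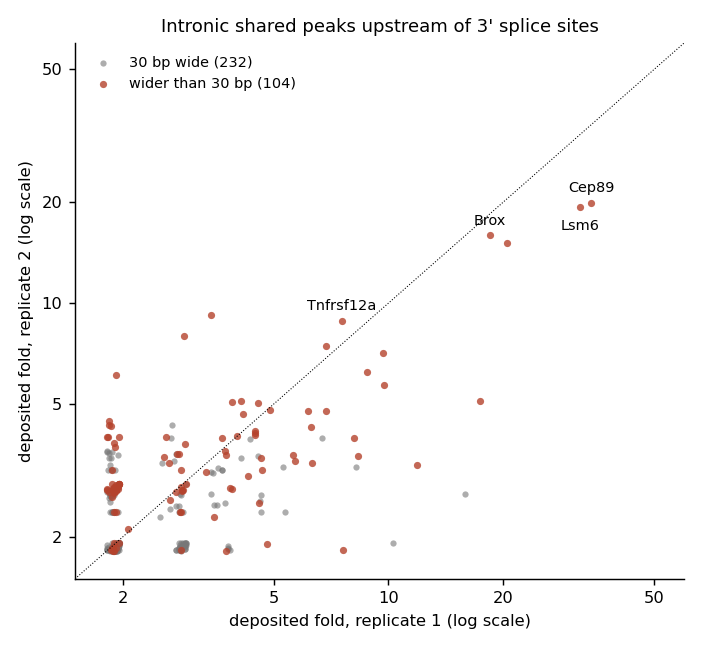
Deposited fold of the 336 peaks upstream of 3' splice sites in replicate 1 and replicate 2, both on log scales, with the dotted line marking equal folds and red points the 104 peaks wider than 30 bp. Most points sit near the lowest folds, 132 of them under 2 in both, while the 4 named peaks stand apart.

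Cep89, a centrosomal protein gene, held the highest-ranked peak. It covered chr7:35423232-35423353 on the plus strand, before exon 12 of 19, with folds of 34.1 and 19.9. In replicate 2 it ran 54 nt into the exon, and in replicate 1 the peak was longer, from 285 nt upstream of the site to 20 nt into the exon. Lsm6 encodes a subunit of the Sm-like ring that binds U6 snRNA. Its peak (chr8:78820069-78820197, minus strand) preceded exon 2 of 5 with folds of 31.9 and 19.4, and crossed into the exon in both replicates. That exon is non-coding in the transcript used and is skipped in another basic transcript.

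Brox followed with folds of 18.5 and 15.9 (chr1:183292573-183292656, minus strand), before exon 4 of 14. In each of these 3 genes the peaks of both replicates lay over the last stretch of the intron, and the higher fold was in replicate 1.

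After these the folds fell quickly. Tnfrsf12a, the receptor for the cytokine TWEAK, had 7.55 and 8.83 before exon 2, and Net1, a guanine nucleotide exchange factor of small GTPases, had 6.83 and 7.42. Col4a1, a chain of basement membrane collagen, had 9.66 and 7.07. Agtrap, which binds the angiotensin II type 1 receptor, had 9.76 and 5.71. Dedd, a death effector domain protein, had the largest ratio between libraries among the genes named here, with 17.4 and 5.10.

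These 8 genes are among the 10 with a fold of 5 or more in both replicates. Further down the first 20 by rank were Klra9, Taok1, H2afz, Zfp30, Drg1, Myo9b, Vamp4, Iffo1 and Fnip2, and the lowest fold of any of the 20 was 2.92. Their functions range over a lectin-like receptor (Klra9), a kinase (Taok1), a GTPase (Drg1), a motor protein (Myo9b) and a SNARE (Vamp4). In 14 of the 20 the interval touched the exon in at least 1 replicate, in 9 it did so in both, and 6 of the 20 preceded exon 2. H2afz and the Klra9 family have near-identical copies in the genome, and how reads that map to several places were treated is not stated in the sources used here, so these peaks are uncertain. All but 2 of the 45 bases of the H2afz peak are intronic, and whether its copies hold this intron was not checked.

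**Figure D3:**
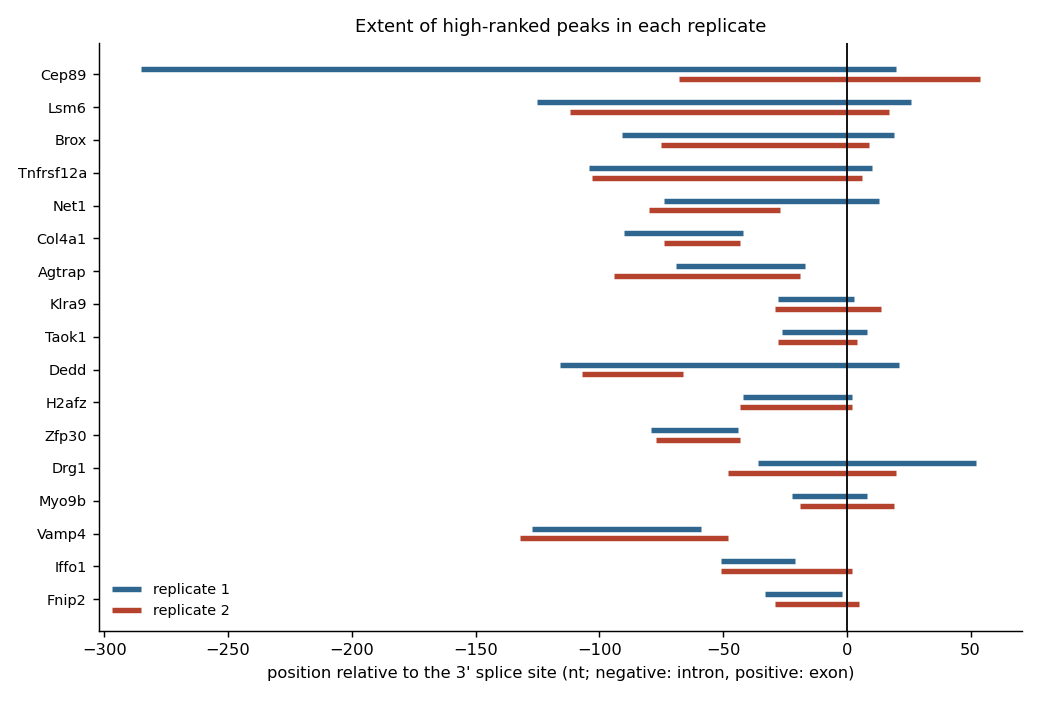
Extent of 17 of the 20 highest-ranked peaks in replicate 1 (blue) and replicate 2 (red), in nt relative to the 3' splice site, where negative positions are intron and positive ones exon. In 13 of the 17 genes at least 1 replicate's interval passes the vertical line at the splice site, and in 9 both do.

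Overlap between replicates, strength, width and exon skipping were compared with other intronic peaks in 7 two-sided Fisher's exact tests, adjusted by Benjamini-Hochberg over the 7. At an adjusted p of 0.05, 0 of the 7 passed, and 1 did at an unadjusted p of 0.05. Of replicate 2 peaks close to 3' splice sites, 565 of 7327 (7.71%) overlapped a replicate 1 peak by 1 bp or more, against a background of 7.72% over all intronic replicate 2 peaks. The share was 7.45% near 5' splice sites (difference 0.265 percentage points, 95% interval −0.593 to 1.12, exact test, adjusted p = 0.864) and 7.73% deep in introns (difference −0.0143, −0.611 to 0.626, adjusted p = 1). With the limit set at 200 nt in place of 100, the odds ratio against deep intronic peaks turned from 0.998 to 1.10 and passed the threshold (exact test, adjusted p = 0.0224). By distance, overlap ran from 6.87% to 8.81% over the 10 bins at 3' sites, with overlapping intervals.

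Strong peaks were a smaller share than deep in introns, a difference that passed the threshold only when strength was set by −log10 p. A fold of 5 or more in both replicates was found for 10 of 336 peaks (2.98%), where the background over all intronic shared peaks is 5.63%. Near 5' splice sites it was 13 of 327 (3.98%; difference −0.999 points, −4.02 to 1.92; exact test, adjusted p = 0.864), and deep in introns 780 of 13610 (5.73%; difference −2.75 points, −4.17 to −0.311; p = 0.0306, adjusted p = 0.214). When strength was instead a lower −log10 p of 6 or more, 14 of 336 peaks passed, and the odds ratio against deep intronic peaks was 0.461 (Fisher's exact test, adjusted p = 0.0196). The deep intronic share at that setting is not given here. By fold, no other setting passed against deep intronic peaks. The exact tests gave adjusted p = 0.367 at a fold of 3, 0.250 at 50 nt, 0.353 at 200 nt and 0.0712 in the comprehensive set. Among all replicate 1 peaks, a fold of 5 or more was found in 0.781% close to 3' splice sites and 0.893% deep in introns. In replicate 2 it was 0.560% and 0.673%. Among the 336, strong peaks numbered 1 of 95 within 20 nt, 3 of 88 from 21 to 50 nt and 6 of 153 from 51 to 100 nt, with overlapping intervals (0.186 to 5.72%, 1.17 to 9.55% and 1.81 to 8.29%).

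No difference in width passed the test. Peaks wider than the least width of 30 bp were 104 of 336 (31.0%), against a background of 31.0%, with 33.0% near 5' splice sites (difference −2.08 points, −9.14 to 5.01, exact test, adjusted p = 0.864) and 30.9% deep in introns (difference 0.0413 points, −4.73 to 5.23, adjusted p = 1). These tests treat peaks as independent, although peaks of a gene share its RNA. The p-values rest on counts of peaks from 2 libraries and measure no spread between libraries.

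**Figure D4:**
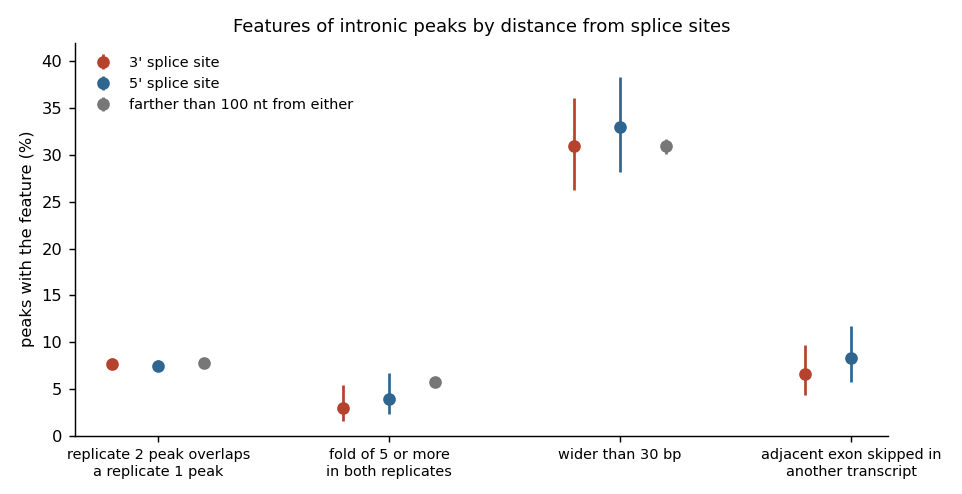
Percent of peaks with each of 4 features (points, with 95% Wilson intervals) for peaks close to 3' splice sites (red), close to 5' splice sites (blue) and deep in introns (grey, not given for exon skipping). Overlap between replicates was 7.71%, 7.45% and 7.73% in the 3 classes, while strong peaks made up 2.98%, 3.98% and 5.73%.

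Exons after a peak were mostly ordinary internal coding exons. Of the 336, 329 preceded a coding exon, 26 the last exon and 34 the second. Internal exons had a median length of 113.5 nt, and 118 nt at the 5' splice sites. The introns had a median of 1417 nt (81 to 61237), against 1574 nt for introns with a peak near the 5' splice site. Introns shorter than 200 nt numbered 36 (10.7%, 7.84 to 14.5) and 11 (3.36%, 1.89 to 5.92). The median gene length per peak was 39533 nt, shorter than the 59738 nt of deep intronic peaks and close to the 45705 nt of those near 5' splice sites. In 124 of the 322 genes (38.5%) the peak close to a 3' splice site was the single shared intronic peak. The share of genes with a single peak among all genes with shared intronic peaks is not given here, so the count does not set this class apart.

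Few of the exons after a peak are annotated as skipped in the basic set. An exon was counted when an intron of another transcript spanned it, so first and last exons could count too. Of the 336 peaks 26 precede a last exon, and 36 of the 327 near 5' splice sites follow a first exon. The shares below therefore do not separate skipped internal exons from alternative transcript ends. Another basic transcript skips the next exon for 22 of the 336 peaks (6.55%, 4.36 to 9.71), and the preceding exon for 27 of the 327 near 5' splice sites (8.26%; difference −1.71 points, −5.83 to 2.34; Fisher's exact test, adjusted p = 0.864). Among 3' splice sites without such a peak in the same genes the share in the basic set was 4.86% (268 of 5514), and over all protein-coding genes 5.55%. With the comprehensive set the share rose to 14.0% (47 of 336, 10.7 to 18.1), and to 12.2% (40 of 327, 9.11 to 16.2) near 5' splice sites. The order of the 2 classes was then reversed, and the exons after the peaks of Cep89 and Brox counted as skipped. The 5 highest-ranked peaks before exons counted as skipped in the basic set were in Lsm6, Tnfrsf12a, Net1, Dedd and Lrrfip1, a nucleic acid sensor with folds of 3.87 and 5.06 (chr1:91088587-91088652, plus strand). The first 4 all precede exon 2 in the transcript used, which for Net1 is the last exon (exon 2 of 2).

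In 14 genes, 2 different 3' splice sites carried a peak: Cc2d1b, Ccar2, Cflar, Kif18a, Lta4h, Mak16, Mpdz, Net1, Osmr, Pan2, Pi4ka, Porcn, Tnfrsf12a and Usp11. Tnfrsf12a had both in neighbouring introns, before exon 2 (folds 7.55 and 8.83) and exon 3 (6.29 and 3.34), and both are among the GAC-rich sequences printed above. Mpdz, a scaffold with many PDZ domains, had folds of 5.27 and 3.24 before exon 21 and of 4.10 and 5.10 before exon 23. Net1 paired its strong peak with a weaker one before exon 8 (3.71 and 2.53). Cflar, an inhibitor of caspase-8 activation, had 4.63 and 3.45 before exon 5 and 1.86 and 2.63 before exon 7. For the oncostatin M receptor gene Osmr all 4 folds lay between 1.86 and 1.92, which is at the weak end of the class.

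The midpoint of 70 of the 336 peaks (20.8%, 16.8 to 25.5) lay in an exon of the gene in the comprehensive set, 53 of them in a retained-intron transcript, so that intronic position depends on the transcript set there. The peaks of Rpl23a (folds 2.90 and 7.98, chr11:78183047-78183085, minus strand) and Rpl7a (2.57 and 3.46, chr2:26912575-26912606, plus strand) lay over annotated small RNA genes on their strand. A gene of the opposite strand covered 15 peaks (4.46%), a share not given here for the other classes. On both strands stood 5 intervals (1.49%), against 0.612% near 5' splice sites and 1.42% deep in introns.

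The gene lists are given by their counts, with no test. With a host gene taken as one that holds a peak close to a 3' splice site, 322 of the 13043 protein-coding genes with intronic peaks in both replicates were hosts (2.47%), and the small counts below are to be read against that share. Factors that recognise the 3' splice site and the U2 snRNP gave 0 of 20 such genes. Other core spliceosome genes gave 2 of 36, Xab2 (folds 2.85 and 2.82) and Cdc5l (2.84 and 2.66), both associated with the Prp19 complex of the active spliceosome. Splicing regulators gave 1 of 50, Hnrnpa2b1, with folds of 2.07 and 2.11.

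ALS and FTD genes gave 2 of 22, Hnrnpa2b1 and Atxn2l, a stress granule protein related to ataxin-2 (8.09 and 3.95). The m6A machinery gave 2 of 20, Hnrnpa2b1 and the reader Ythdc2 (1.95 and 1.83). Among cytoskeleton and GTPase regulators, 4 of 43 were hosts, of which Tln1, the integrin-linking protein talin, ranked first (3.42 and 3.12), followed by the exchange factors Vav2 (1.92 and 2.86) and Dock5 (1.89 and 3.82). Chromatin regulators gave 1 of 50, the methyltransferase Kmt2c (1.86 and 4.30), and ubiquitin and kinase signalling 1 of 40, the ubiquitin ligase Herc1 (1.88 and 2.38). Axon guidance gave 0 of 36 and neuronal differentiation 0 of 24.

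At the edge of the zone, the 14 peaks in the last 5 nt inside the limit had a median lower fold of 1.89 (highest 2.88), and the 25 in the first 5 nt outside it 1.91 (highest 10.7). The 2 replicates placed their midpoints a median of 8 nt apart, and within 10 nt in 214 of the 336 pairs.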

How the data were processed

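Peaks of wild-type CLIP replicates 1 and 2 were called per library with MACS2, per the file headers and peak names, at a p threshold of 0.005. The submitters' processing notes name the mm10 build and, with no role or order, deepTools 3.2.1, HOMER 4.11.1, Novoalign 3.09.00, bedtools 2.25.0 and MACS2 2.1.1.20160309. The sources used here do not say whether input was the caller's control. For each peak the authors deposited a score, a fold, which is the ratio of the pileup to its background, and a −log10 p. Each line of the deposited shared list pairs a replicate 2 peak with a replicate 1 peak that covers at least 50% of it.

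Repeated lines were removed, and replicate 2 midpoints were placed on the GENCODE M21 basic set. Peaks were ranked by the lower −log10 p, and shares carry 95% Wilson intervals, which cover counting error over peaks only. Classes were compared with Fisher's exact tests (scipy 1.17.1) after the procedure was tested on simulated data. Python 3.11.15, numpy 2.4.6, pandas 2.3.3 and matplotlib 3.10.9 were used. A genome sequence was not used here, so motifs were read from GENCODE transcripts that cover an interval. The genes named, apart from a few that are not reported here, are the first 20 by rank, those with 2 sites, up to 3 members of each gene list, and the first 5 that cross into the exon or precede a skipped exon. The class and the lists were chosen with earlier results of these data known.

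The 8 columns of a deposited count table match no label and were not used, so the planned comparison of knockout with wild type was not run. Alternatives covered the distance limit, annotation, overlap, strength, width and reference point.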

Additional observations from a re-analysis of the deposited data

How the results depend on the processing

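Over the settings tried for the main results, 31 values stayed on the same side or, for plain shares, stayed similar. A further 10 changed side, 5 shares moved, and 1 value passed the threshold on the same side. The share of intronic shared peaks moved with the limit, to 1.28% at 50 nt and 4.81% at 200 nt, and was 1.25% among peaks with a fold of 5 or more in both replicates. Midpoints within 50 nt of the site rose from 54.5% to 72.02% when the nearer end of the interval was used, and 33.3% of replicate 1 intervals crossed into the exon. Against deep intronic peaks, overlap between replicates had an odds ratio of 1.001 when 50% of both peaks had to be covered, 1.10 at 200 nt (adjusted p = 0.0224, Fisher's exact test) and 1.0003 for replicate 1 peaks. Against 5' splice site peaks, replicate 1 peaks gave 0.951. Strength turned to 1.07 against 5' splice site peaks at a fold of 3, and against deep intronic peaks it passed the threshold at 0.461 with a −log10 p of 6 or more. Width over 100 bp gave 1.22 against 5' splice site peaks and 0.386 against deep intronic peaks, where replicate 1 widths gave 0.835 and the 50 nt limit 0.883. Exon skipping turned to 1.17 in the comprehensive set. Apart from the 200 nt limit, each of these reversals failed its test in both directions; the cause was not tested.

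No paired analysis was possible because the values compared are classes of peaks from 2 libraries of 1 group, and the count columns carry no sample labels. Depth is unknown. Motifs were read in 64 of 336 peaks, 2 of them among the 10 strong ones.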
